A study of Mus musculus with 9 samples.

Results

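Wild-type mouse cells that had received oxyhemoglobin together with the agent NTR1 were compared with cells that had received oxyhemoglobin alone. The comparison used all 3 libraries that the sample labels place in the combined group, called Hb+NTR1 here and ganyu in the labels, and all 3 libraries of the Hb group, so 6 of the 9 libraries of the series. It covered every gene that passed a filter on low counts, 13810 of 54134 entries. The other 3 libraries were controls without intervention. Poly(A) RNA was sequenced, and the title of the series names neuronal apoptosis, subarachnoid hemorrhage and ITGA11 as its subject. The labels write NTR1 and the title writes NGR1 for the added agent, and the labels used here state neither a dose nor a time. No group received the agent without oxyhemoglobin, so its action on otherwise untreated cells was not measured.

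Oxyhemoglobin spills from broken red cells when blood enters the fluid around the brain. Cells take up its heme, and heme oxygenase splits heme into biliverdin, carbon monoxide and iron, which ferritin stores. Integrins, the family that contains the title gene, are paired surface receptors that tie the cytoskeleton to collagens and other matrix proteins, and the α11 subunit pairs with β1 to bind fibrillar collagen. HT22 cells are an immortalised line of mouse hippocampal origin that divides in culture. The sample titles use HT22, the cell type field uses HT-4, and the genotype is WT in all groups.

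Library totals lay between 13415648 and 14728662 counts for Hb and between 13945507 and 14280053 for Hb+NTR1, so both arms were sequenced to similar depth. The limit set by a count of 0, 3 counts, came to 0.204 to 0.224 CPM, a unit that scales counts to a common library total, in these 6 libraries. This floor covers counting error only. On the leading principal component, with 72.7% of the variance, Hb+NTR1 separated from all Hb and control libraries. Hb replicate 2 stood farthest from its group, and without it 8613 genes were called in place of 8607. The Hb+NTR1 libraries held 20926 to 21625 entries with at least 1 count, against 19830 to 20262 in Hb, and mitochondrially encoded genes took 6.42% ± 0.228 against 4.38% ± 0.220 of the counts (SD, n = 3, as for all means given). Without the mitochondrially encoded genes 8607 genes were called as well, and the part of these differences in single results was not tested. Of 30 neuronal marker genes, 23 were under 1 CPM in Hb, among them Rbfox3, Map2, Snap25 and Nefl, which were at 0 in every Hb library, while type I collagen mRNAs were abundant. Differentiated neurons carry these mRNAs, so the marker levels go against a differentiated neuronal state, and what the line is was not tested. No label says whether the libraries within a group are separate cultures. The p-values therefore reflect the spread among libraries, and that spread may be technical. It was estimated over all groups, control included, and for each gene drawn toward the spread of other genes.

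Promoter sequences are shown for members of gene groups that moved in opposite directions: Lamp1 and Mcoln1 encode lysosomal membrane proteins that rose, Egr2 is an immediate early gene that rose, and Filip1l is an actin-related gene that fell. Each stretch is the 150 bases before an annotated start, 5′ to 3′ on the plus strand, from RefSeq on GRCm38.p6. The stretches lie at chr8:13159011-13159160, chr8:3500369-3500518, chr10:67537416-67537565 and chr16:57549092-57549241. Egr2 has several annotated starts with a CArG box nearby, and the first by position is shown. Capitals mark the E-box CACGTG in the lysosomal genes, and the CArG box, the DNA element that serum response factor (SRF) recognises, in the other pair.
Lamp1: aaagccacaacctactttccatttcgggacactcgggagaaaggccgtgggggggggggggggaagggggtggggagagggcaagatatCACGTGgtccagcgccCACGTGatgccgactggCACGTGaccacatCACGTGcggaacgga
Mcoln1: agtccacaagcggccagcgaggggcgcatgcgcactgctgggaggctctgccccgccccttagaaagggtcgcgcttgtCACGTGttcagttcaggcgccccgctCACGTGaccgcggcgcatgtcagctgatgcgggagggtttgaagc
Egr2: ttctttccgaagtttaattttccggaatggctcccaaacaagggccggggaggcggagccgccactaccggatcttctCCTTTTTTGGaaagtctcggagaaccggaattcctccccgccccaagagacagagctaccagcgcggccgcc
Filip1l: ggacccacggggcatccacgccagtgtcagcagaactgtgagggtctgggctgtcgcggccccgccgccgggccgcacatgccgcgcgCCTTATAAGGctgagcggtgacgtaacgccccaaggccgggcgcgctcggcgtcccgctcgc
The Lamp1 stretch held 4 E-boxes between 61 and 15 bases before the start, and the Mcoln1 stretch held 2. The Egr2 and Filip1l stretches each held 1 CArG box, 72 and 62 bases before the start. A match is a description of the letters, not evidence of binding.

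Adding NTR1 to oxyhemoglobin went with a broad change of the transcriptome. Levels are given as normalised CPM, scaled by TMM factors. Differences were tested two-sided with the quasi-likelihood F test of edgeR, and p-values were adjusted by Benjamini-Hochberg over the 13810 genes, with a threshold of 0.05. By this test 8607 genes, or 62.3% of those tested, differed between Hb+NTR1 and Hb, 4237 (30.7%) higher and 4370 (31.6%) lower. Changes of at least 2-fold were found in 2206 genes (16.0%), 855 (6.19%) higher and 1351 (9.78%) lower. The median log2 fold change over all genes was -0.01 and the median absolute value 0.42. The libraries of the groups did not overlap in 8937 genes (64.7%). In the same fit 504 genes (3.65%) differed between Hb and control. Since 62.3% of all genes passed, a gene group is described by its split into higher and lower members and by its median rather than by its number of calls. In bulk RNA, fewer cells of a kind and less RNA per cell cannot be told apart.

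**Figure D1:**
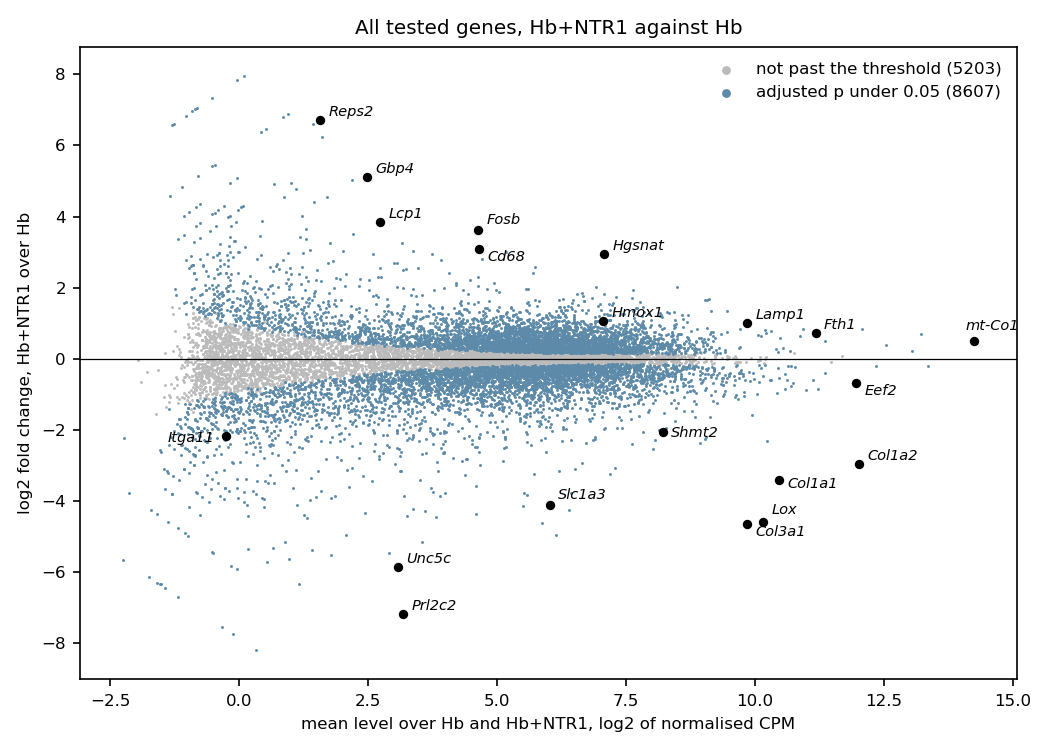
Log2 fold change of Hb+NTR1 over Hb (y axis) against the mean level over the 2 groups as log2 of normalised CPM (x axis) for 13810 tested genes; blue points are the 8607 genes with adjusted p under 0.05, grey points are the rest, and black points are labelled genes. Col1a2, Col1a1, Lox and Col3a1 lie low at high levels, and Hgsnat, Fosb and Gbp4 lie high.

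The 12 largest rises were taken among called genes that reached 10 CPM and had no overlap of libraries between the groups. That the libraries are separate therefore follows from the choice. These rises were in Gbp4, Lcp1, Fosb, Lyz2, Cd68, Ctso, Fos, Aox1, Gch1, Hgsnat, Glt8d2 and Ifi202b. Gbp4, an interferon-induced guanylate-binding protein at chromosome 5:105115767-105139586 of GRCm38, had 0.283, 0.137 and 0.519 CPM in the Hb libraries and 11.2, 11.7 and 9.61 CPM in the Hb+NTR1 libraries (log2 fold change 5.10 ± 0.324, edgeR adjusted p = 2.29e-12). Lcp1, which encodes the actin-bundling protein L-plastin of blood cells, had 0.494, 0.820 and 1.26 CPM in Hb and 11.7, 13.3 and 12.3 CPM in Hb+NTR1. Both genes were low in all Hb libraries, and all Hb+NTR1 libraries lay well above them. Fosb, a subunit of the AP-1 transcription factor, went from 3.88, 3.42 and 3.86 CPM to 44.0, 48.4 and 45.7 CPM (log2 fold change 3.63 ± 0.124, edgeR adjusted p = 2.49e-17), and Fos, its relative, from 7.42, 7.38 and 9.35 to 63.3, 73.3 and 55.2 CPM. Hgsnat had 31.6, 31.4 and 30.0 CPM in Hb and 231, 239 and 243 CPM in Hb+NTR1, a rise of 7.67-fold (log2 fold change 2.94 ± 0.0700, edgeR adjusted p = 3.10e-20). It encodes the acetyltransferase that lysosomes need to degrade heparan sulfate, lies at chromosome 8:25944453-25976753, and was the most abundant of the 12, with groups far apart. Other rises included genes known from lysosomes or macrophages: Cd68 went from 5.24 ± 0.492 CPM in Hb to 45.1 ± 1.47 CPM in Hb+NTR1, the lysozyme gene Lyz2 from 1.68 to 16.0 CPM and the cathepsin gene Ctso from 2.28 to 18.4 CPM. Gch1, which makes the first step of tetrahydrobiopterin synthesis, went from 1.37 to 10.7 CPM, the aldehyde oxidase gene Aox1 from 3.04 to 23.6 CPM and the glycosyltransferase-like gene Glt8d2 from 6.47 to 45.8 CPM. Gbp4 and Ifi202b belong to families of near-identical genes, so their own values are uncertain.

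The 12 largest falls by the same rule were in Prl2c2, Unc5c, Cdh26, Il1rl1, Ly6a, Col3a1, Cp, Lox, Medag, S1pr3, Ly6c1 and Calml4. Unc5c, a receptor for the guidance cue netrin, had 18.6, 13.6 and 17.4 CPM in Hb and 0.0685, 0.492 and 0.278 CPM in Hb+NTR1 (log2 fold change -5.85 ± 0.269, edgeR adjusted p = 6.49e-15). Il1rl1, the receptor of interleukin 33, had 22.9, 23.9 and 21.3 CPM in Hb and 0.343, 0.913 and 0.627 CPM in Hb+NTR1 (log2 fold change -5.16 ± 0.199, edgeR adjusted p = 2.62e-16). Cp, the copper oxidase ceruloplasmin that helps iron leave cells, had 108, 93.9 and 135 CPM in Hb and 4.11, 4.71 and 4.80 CPM in Hb+NTR1 (log2 fold change -4.63 ± 0.129, edgeR adjusted p = 7.83e-19). In all of these genes the Hb+NTR1 libraries were far below the Hb libraries, and separate libraries were a condition of the choice. S1pr3, a receptor for sphingosine 1-phosphate, fell 21.6-fold from 18.2 ± 0.855 CPM in Hb to 0.834 ± 0.0104 CPM in Hb+NTR1, the cadherin gene Cdh26 44.3-fold from 14.7 to 0.325 CPM and Medag, a gene of fat cell differentiation, 21.8-fold from 26.9 to 1.23 CPM. Ly6a and Ly6c1, which encode small lipid-anchored surface proteins, fell from 136 to 4.36 and from 46.0 to 2.25 CPM. These 2 genes and Prl2c2 have near-identical relatives and are uncertain for that reason.

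Fibrillar collagen and its cross-linking enzyme gave 4 of the 6 largest losses in CPM, in Col1a2, Col1a1, Lox and Col3a1. Of 20 collagen chain genes listed, 17 passed the filter, with 2 members up, 13 down and 2 short of the threshold among 17 tested, and a median log2 fold change of -1.25. Their summed level was 14237 to 16322 CPM in the Hb libraries and 2831 to 2924 CPM in the Hb+NTR1 libraries, a set of values without overlap. Col1a2, a chain of type I collagen, had 7807, 6961 and 7376 CPM in Hb and 949, 970.4 and 914 CPM in Hb+NTR1 (log2 fold change -2.97 ± 0.0698, edgeR adjusted p = 2.79e-20). Col1a1, its partner chain, had 2882, 2366 and 2546 CPM and 252, 258 and 226 CPM (log2 fold change -3.41 ± 0.0828, edgeR adjusted p = 3.59e-20). Col3a1, the type III chain, had 1783, 1726 and 1804 CPM and 72.6, 73.0 and 67.5 CPM (log2 fold change -4.64 ± 0.0742, edgeR adjusted p = 2.17e-23). The replicates of each group lay close together and the groups were 7.82-fold, 10.6-fold and 24.9-fold apart. The type VI chain Col6a2 fell 8.33-fold, while the basement membrane chains Col4a1 and Col4a2 rose by only 0.20 and 0.27 log2 units, the latter with overlapping libraries. The call of Col4a1 ended without Hb+NTR1 replicate 3, which left 1 collagen chain up, and neither chain passed a test against a fold threshold of 1.2.

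Lox encodes lysyl oxidase, the enzyme that cross-links collagen and elastin. It had 2136, 2084 and 2376 CPM in Hb and 88.1, 80.7 and 104 CPM in Hb+NTR1, a fall of 24.2-fold (log2 fold change -4.59 ± 0.0894, edgeR adjusted p = 1.00e-21). Among collagen processing enzymes there were 2 members up, 11 down and 2 short of the threshold among 15 tested, with a median of -0.45. Pcolce, the enhancer of procollagen cleavage, fell from 451 ± 33.9 CPM in Hb to 112 ± 6.30 CPM in Hb+NTR1, the procollagen protease Adamts2 from 96.9 to 29.1 CPM, and the collagen chaperone Serpinh1 from 1195 to 578 CPM. The lysyl hydroxylases Plod1 and Plod2 went the other way, from 116 to 198 and from 54.8 to 109.98 CPM. Matricellular and matrix glycoproteins had 4 members up, 14 down and 0 short of the threshold among 18 tested, with a median of -0.85: the fibronectin gene Fn1 fell 4.95-fold from 2006 ± 420.3 CPM in Hb to 405 ± 9.33 CPM in Hb+NTR1, and Postn, Dcn and Prelp, which encode periostin and the proteoglycans decorin and prolargin, fell 5.15-fold, 10.9-fold and 14.9-fold. Matrix proteases and their inhibitors had 3 members up, 9 down and 3 short of the threshold among 15 tested: the inhibitor Timp3 fell from 162 ± 16.2 CPM in Hb to 11.9 ± 0.750 CPM in Hb+NTR1 and the aggrecanase Adamts5 from 329 to 62.3 CPM, while Plat, the tissue plasminogen activator, rose from 24.1 to 72.9 CPM.

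Fibroblast markers, of which the type I and III collagens are part, moved with the matrix genes. All 11 of the 13 listed that were tested fell, with a median of -2.25, and their summed level was 14305 to 15699 CPM in Hb and 2845 to 3013 CPM in Hb+NTR1. Pdgfrb, a platelet-derived growth factor receptor, went from 85.2 ± 13.8 CPM in Hb to 6.23 ± 0.143 CPM in Hb+NTR1. Of the 13 listed, 2 were under 1 CPM in Hb, Fap and Lum, which were at 0 or near 0 in every library of both groups. The part of a change in cell makeup in the fall of the matrix genes was not tested.

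**Figure D2:**
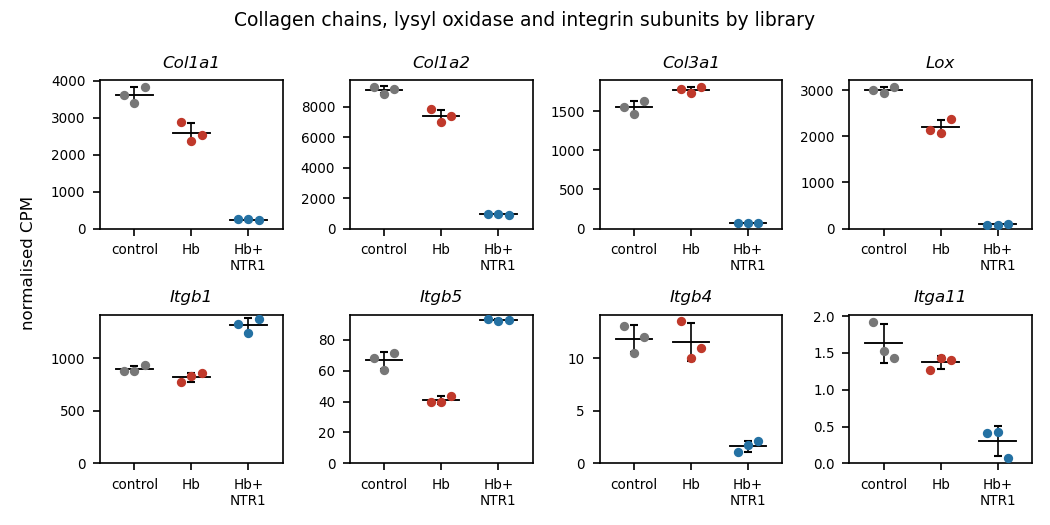
Normalised CPM (y axis, from 0) of 8 matrix and integrin genes in the 3 libraries of control, Hb and Hb+NTR1; points are libraries, horizontal lines are means and bars are ± 1 SD (n = 3). The collagens, Lox, Itgb4 and Itga11 are lowest in Hb+NTR1, and Itgb1 and Itgb5 are highest there.

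Integrin subunits did not move as a block. Of 19 listed, 13 passed the filter, with 6 members up, 4 down and 3 short of the threshold among 13 tested and a median of 0.42, or 0.21 with a filter of 1 CPM in 3 libraries. Itgb1, the β subunit shared by most collagen, laminin and fibronectin receptors, had 769, 831 and 854 CPM in Hb and 1324, 1238 and 1375 CPM in Hb+NTR1 (log2 fold change 0.68 ± 0.0647, edgeR adjusted p = 2.78e-09). Itgb5, a partner of αv, had 39.6, 39.7 and 43.6 CPM and 93.4, 92.4 and 92.9 CPM (log2 fold change 1.18 ± 0.0767, edgeR adjusted p = 3.47e-12). Both genes were higher in every Hb+NTR1 library than in any Hb library. The αv gene Itgav rose from 245 ± 15.5 CPM in Hb to 457 ± 27.7 CPM in Hb+NTR1 and the laminin receptor subunit Itga6 from 105 to 196 CPM. The fibronectin receptor subunit Itga5 had 145 ± 11.3 and 144 ± 2.56 CPM, with edgeR adjusted p = 0.88. Itgb4, a subunit of epithelial anchoring junctions, fell from 13.5, 10.0 and 10.98 CPM to 1.03, 1.76 and 2.09 CPM (log2 fold change -2.82 ± 0.209, edgeR adjusted p = 3.70e-11), and Itgb8, a subunit that activates latent TGF-beta, from 8.77 ± 0.863 CPM in Hb to 2.87 ± 0.348 CPM in Hb+NTR1.

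Itga11, the gene in the title of the series at chromosome 9:62677826-62783982 of GRCm38, was a low-count gene throughout. It had 18, 21 and 19 counts in the Hb libraries, 6, 6 and 1 in the Hb+NTR1 libraries and 32, 23 and 20 in the controls. As normalised CPM, Itga11 stood at 1.93, 1.53 and 1.43 in the control libraries, at 1.27, 1.44 and 1.41 with Hb and at 0.411, 0.421 and 0.0696 with Hb+NTR1. Every Hb+NTR1 library was below every Hb library, and Hb+NTR1 replicate 3 was the lowest, below the floor of 3 counts. The log2 fold change of Itga11 in Hb+NTR1 against Hb was -2.16 ± 0.475 (edgeR adjusted p = 0.000389), a fall of 4.46-fold on values near 1 CPM. The size of the fall depended on the library with 1 count. Without Hb+NTR1 replicate 3 the log2 fold change was -1.70 (edgeR adjusted p = 0.00499), and without Hb+NTR1 replicate 1 or 2 it was -2.44 or -2.46. Between Hb and control the log2 fold change of Itga11 was -0.25 (edgeR adjusted p = 0.788).

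Lysosomal genes had the largest share of rising members among the 44 gene lists, which were chosen with earlier results of these data known. The rank is therefore no independent result. These genes had 25 members up, 0 down and 2 short of the threshold among 27 tested, with a median log2 fold change of 0.85. Their summed level was 5042 to 5288 CPM in the Hb libraries and 8408 to 9043 CPM in the Hb+NTR1 libraries. Lamp1, an abundant glycoprotein of the lysosomal membrane with the first of the printed promoters, had 613, 649 and 587 CPM in Hb and 1237, 1308 and 1162 CPM in Hb+NTR1 (log2 fold change 1.00 ± 0.0685, edgeR adjusted p = 8.63e-12). Gla, the galactosidase that is deficient in Fabry disease, had 41.2, 44.1 and 46.5 CPM and 129.9, 135 and 130.3 CPM (log2 fold change 1.58 ± 0.0799, edgeR adjusted p = 3.52e-14). Libraries of the groups did not overlap for either gene. The cholesterol exporter Npc1 rose from 42.4 ± 5.11 CPM in Hb to 109 ± 1.71 CPM in Hb+NTR1 and the sialidase Neu1 from 24.96 to 61.9 CPM. Mcoln1, the lysosomal calcium channel with the second printed promoter, rose from 54.5 to 82.3 CPM. Only Ctsz and Cd63 did not pass, with edgeR adjusted p = 0.702 and 0.903.

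The E-box CACGTG, a sequence that many transcription factors recognise, TFEB and TFE3 among them, was searched on both strands from 250 bases before to 50 after each annotated start. It occurred in 8 of 23 windows (34.8%) of the lysosomal genes, of which 21 of 27 matched the RefSeq table, and in 7.15% of all 32851 windows. Lists that mostly fell had similar shares, with 4 of 12 windows (33.3%) for cytosolic tRNA synthetases and 5 of 18 (27.8%) for ribosome biogenesis genes, so the share was not particular to lysosomal genes. Besides Lamp1 and Mcoln1, matches lay in Ctsa, Ctsd, Glb1, Gaa, Ctsl and Gla. The mRNA of Tfeb itself fell from 12.9 ± 1.39 CPM in Hb to 8.66 ± 1.402 CPM in Hb+NTR1 and that of Tfe3 rose from 72.1 to 84.9 CPM. Autophagy genes had 17 members up, 2 down and 8 short of the threshold among 27 tested, with a median of 0.31. Sqstm1, the receptor that carries ubiquitinated cargo, had 586, 646 and 571 CPM in Hb and 1021, 1092 and 1092 CPM in Hb+NTR1 (log2 fold change 0.83 ± 0.0650, edgeR adjusted p = 1.01e-10). Atg12 rose from 37.2 to 79.0 CPM and Gabarapl2 from 39.3 to 75.3 CPM, both parts of the ubiquitin-like systems that build autophagosomes, and the initiating kinase Ulk2 rose from 57.5 to 105 CPM. Map1lc3a, which encodes a protein of the autophagosome membrane, fell by 0.72 on the log2 scale.

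Genes that respond to growth factor signalling through ERK were mostly higher in Hb+NTR1. ERK output and feedback genes had 12 members up, 1 down and 3 short of the threshold among 16 tested, with a median of 1.11. The ERK phosphatase gene Dusp6 had 45.7, 43.5 and 49.1 CPM in Hb and 118, 120.04 and 139 CPM in Hb+NTR1 (log2 fold change 1.45 ± 0.0802, edgeR adjusted p = 1.84e-13). Its relatives Dusp5 and Dusp4 rose from 11.3 ± 1.60 CPM in Hb to 44.7 ± 2.64 CPM in Hb+NTR1 and from 20.6 to 56.9 CPM, and the ETS factor Etv5 rose 4.63-fold from 7.87 to 36.5 CPM. Spry1 was the member that fell, from 4.70 to 3.08 CPM, a call lost without Hb replicate 1, Hb+NTR1 replicate 1 or Hb+NTR1 replicate 2, and the cyclin gene Ccnd1 had 98.2 ± 2.46 and 109 ± 9.22 CPM, with edgeR adjusted p = 0.0769. Ereg, a ligand of the EGF receptor, went from 8.36 ± 1.196 CPM in Hb to 41.0 ± 7.24 CPM in Hb+NTR1.

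AP-1 and immediate early genes had 17 members up, 5 down and 2 short of the threshold among 24 tested, with a median of 0.79. Beside Fosb and Fos, Egr2 went from 8.97, 5.06 and 7.05 CPM in Hb to 29.5, 31.2 and 28.1 CPM in Hb+NTR1 (log2 fold change 2.08 ± 0.146, edgeR adjusted p = 1.53e-11). The members that fell were Fosl2, Klf2, Klf4, Jund and Myc, at log2 fold changes of -1.63, -1.50, -1.09, -0.75 and -0.27. SRF has 2 classes of known targets, immediate early genes and genes of the actin cytoskeleton. The listed SRF-dependent actin and contractile genes had 0 members up, 13 down and 2 short of the threshold among 15 tested, with a median of -0.79. The list of AP-1 and immediate early genes, with its median of 0.79, was not limited to SRF targets. The opposite signs therefore describe the lists and not the 2 classes of SRF targets. Filip1l went from 102, 97.5 and 114 CPM to 38.3, 38.7 and 42.1 CPM (log2 fold change -1.40 ± 0.0755, edgeR adjusted p = 1.14e-13), and Zyx and Tpm1, which encode the adhesion protein zyxin and a tropomyosin, fell from 236 ± 24.0 CPM in Hb to 94.4 ± 2.37 CPM in Hb+NTR1 and from 367 to 155 CPM. Actb and Myh9 did not pass, with edgeR adjusted p = 0.418 and 0.947. The CArG box occurred in 7 of 15 windows (46.7%) of the actin genes, in 5 of 24 windows (20.8%) of the immediate early genes, where 4 of the 5 belong to alternative starts of Egr2 and 1 to Zfp36, and in 1.63% of all windows. Most of these Egr2 windows overlap and hold the same box, so the same site was counted more than once. Genes on chromosome 18 were not searched. The actin genes were listed as known SRF targets, so their share is no independent result.

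**Figure D3:**
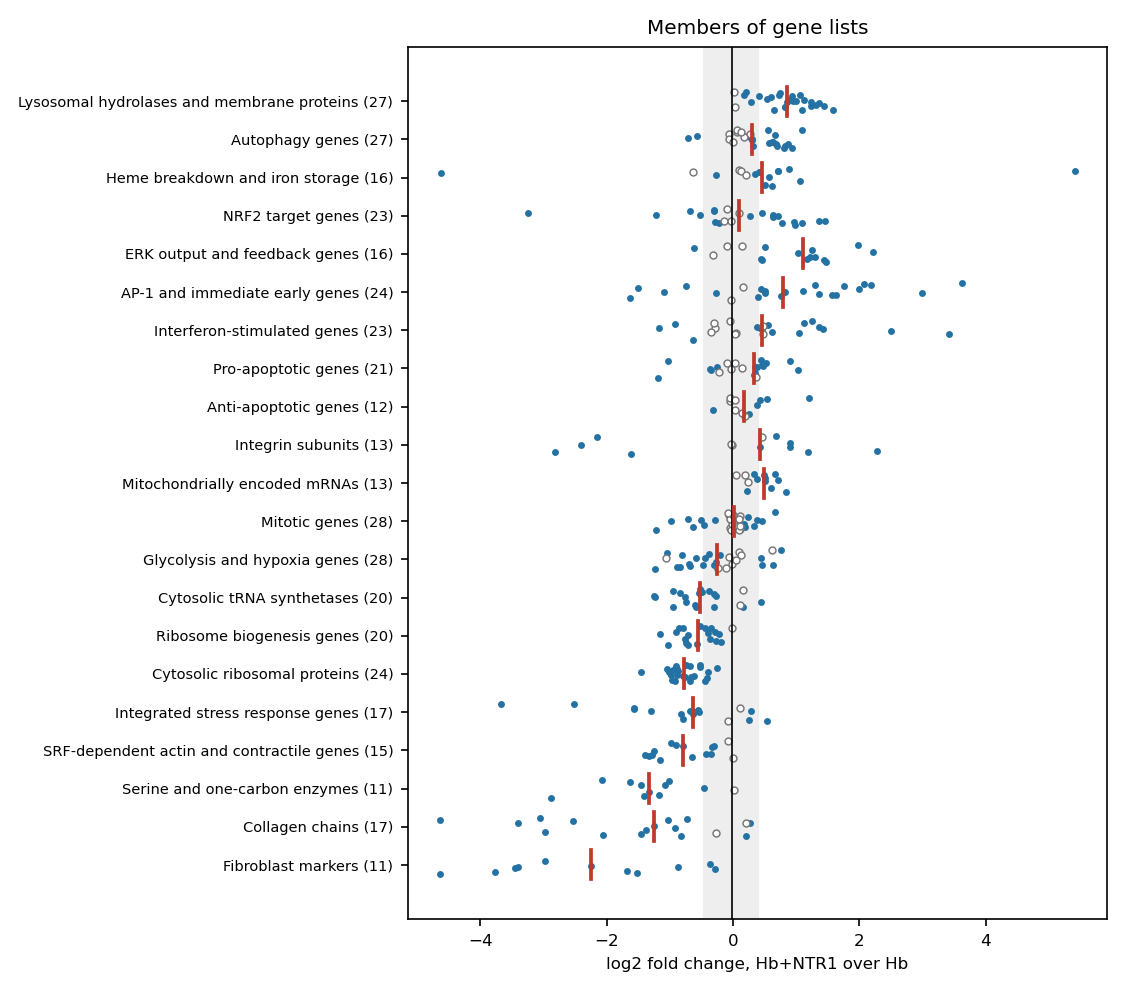
Log2 fold change of Hb+NTR1 over Hb (x axis) for tested members of 21 gene lists (y axis, number tested in brackets); blue points passed adjusted p 0.05, open points did not, red bars are list medians, the black line is the median of all genes and the grey band its interquartile range, -0.46 to 0.39. Lysosomal, ERK and immediate early genes lie mostly to the right, and collagen, serine pathway and ribosomal protein genes to the left.

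Other signalling groups were divided. YAP targets had 6 members up, 8 down and 2 short of the threshold among 16 tested, with a median of -0.21: Cyr61 and Ctgf, the classical pair of matricellular targets, rose from 251 ± 38.9 CPM in Hb to 796 ± 44.7 CPM in Hb+NTR1 and from 43.2 to 135 CPM, while the coagulation receptor F3 and the receptor kinase Axl fell from 296 to 92.2 and from 468 to 197 CPM. TGF-beta family genes had 9 members up, 5 down and 4 short of the threshold among 18 tested, with a median of 0.40 that ran from 0.24 without Hb+NTR1 replicate 2 or Hb replicate 1 to 0.54 without Hb replicate 2. Without Hb+NTR1 replicate 1, 3 members were down. The SMAD target Id1 rose from 41.0 ± 3.73 CPM in Hb to 147 ± 15.6 CPM in Hb+NTR1, the inhibitory SMADs Smad6 and Smad7 rose 2.32-fold and 2.28-fold, and Tgfb1 rose 2.22-fold. Growth factor ligands, receptors and binding proteins had 5 members up, 12 down and 3 short of the threshold among 20 tested, with a median of -0.54: Igf1 fell 6.77-fold and its binding protein Igfbp4 fell 11.95-fold from 44.7 to 3.73 CPM.

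Genes for making amino acids, tRNAs charged with them, and ribosomes were mostly lower in Hb+NTR1. The list of serine and one-carbon enzymes also held the proline synthesis genes Pycr1 and Aldh18a1. It had 0 members up, 10 down and 1 short of the threshold among 11 tested, with a median of -1.33. Shmt2, the mitochondrial enzyme that passes the serine side chain to folate, had 494, 511 and 434 CPM in Hb and 104, 118 and 121 CPM in Hb+NTR1 (log2 fold change -2.07 ± 0.0727, edgeR adjusted p = 4.32e-17). Pycr1, the last enzyme of proline synthesis, had 39.2, 34.2 and 32.6 CPM and 4.87, 5.48 and 4.04 CPM (log2 fold change -2.88 ± 0.126, edgeR adjusted p = 2.59e-15). The groups were separate in both, and the cytosolic Shmt1 was the member that did not pass, at 63.8 ± 2.89 and 64.9 ± 2.36 CPM. Phgdh, which starts serine synthesis, fell from 478 ± 55.6 CPM in Hb to 213 ± 7.70 CPM in Hb+NTR1 and Psat1, the next enzyme, from 1059.6 to 523 CPM. Integrated stress response genes, many of which are targets of the transcription factor ATF4, had 3 members up, 12 down and 2 short of the threshold among 17 tested, with 1 up without Hb replicate 1, and a median of -0.63. Atf4 had 582, 683 and 580.1 CPM in Hb and 409.5, 419 and 447 CPM in Hb+NTR1 (log2 fold change -0.53 ± 0.0678, edgeR adjusted p = 3.22e-07), and Atf5, Trib3 and the cystathionine lyase gene Cth fell 2.97-fold, 2.46-fold and 5.74-fold. Ddit3, the stress factor also called CHOP, went the other way, from 37.4, 36.0 and 29.3 CPM to 52.8, 47.6 and 48.3 CPM (log2 fold change 0.53 ± 0.0944, edgeR adjusted p = 3.21e-05).

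Amino acid transporters had 2 members up, 7 down and 3 short of the threshold among 12 tested, with a median of -0.55. The leucine transporter Slc7a5 fell from 450.04 ± 30.7 CPM in Hb to 156 ± 9.12 CPM in Hb+NTR1, the glycine transporter Slc6a9 from 103 to 27.1 CPM and the cystine transporter Slc7a11 from 37.0 to 23.2 CPM. Cytosolic tRNA synthetases had 2 members up, 16 down and 2 short of the threshold among 20 tested, with a median of -0.53. The members up were 1 when any control library, Hb replicate 1 or 3, or Hb+NTR1 replicate 1 or 3 was left out, and 4 with library totals alone. Vars and Mars, for valine and methionine, fell 2.38-fold and 2.35-fold. All 24 ribosomal protein genes of the list fell, with a median of -0.78 and a summed level of 14726 to 17574 CPM in Hb and 9707 to 10769 CPM in Hb+NTR1. Ribosomal proteins have many processed pseudogenes, so their own levels are uncertain. Of the ribosome biogenesis genes there were 0 members up, 19 down and 1 short of the threshold among 20 tested, with a median of -0.55, and the rRNA methyltransferase gene Fbl fell from 63.7 ± 9.69 CPM in Hb to 28.6 ± 3.07 CPM in Hb+NTR1. Eef2, the elongation factor that moves the ribosome along, had 5094, 4870.4 and 4641 CPM and 2856, 3300.2 and 3050.4 CPM (log2 fold change -0.67 ± 0.0670, edgeR adjusted p = 7.56e-09). Chaperones of the endoplasmic reticulum were divided, with 5 members up, 9 down and 6 short of the threshold among 20 tested, and its stress factor Xbp1 fell from 142 to 54.1 CPM. Heat shock genes had 9 members up, 4 down and 4 short of the threshold among 17 tested, with 2 down without Hb+NTR1 replicate 1, and Hsp90aa1 rose from 1453 to 2286 CPM.

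Metabolic genes followed a mixed pattern. Cholesterol synthesis and uptake had 6 members up, 13 down and 5 short of the threshold among 24 tested, with a median of -0.27: the mevalonate kinases Mvk and Pmvk fell from 102 ± 7.16 CPM in Hb to 55.9 ± 5.24 CPM in Hb+NTR1 and from 44.2 to 17.2 CPM. Fatty acid synthesis had 3 members up, 9 down and 2 short of the threshold among 14 tested; the synthase Fasn fell from 577 ± 122 CPM in Hb to 312 ± 8.10 CPM in Hb+NTR1 and the elongase Elovl6 from 159 to 67.7 CPM, and Elovl5 rose from 135 to 225 CPM. Among glycolysis and hypoxia genes there were 4 members up, 15 down and 9 short of the threshold among 28 tested, with a median of -0.26. Ldha, which makes lactate, had 807, 953 and 824 CPM in Hb and 346, 378 and 378 CPM in Hb+NTR1 (log2 fold change -1.23 ± 0.0685, edgeR adjusted p = 2.02e-13).

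mRNAs encoded by the mitochondrial genome had 10 members up, 0 down and 3 short of the threshold among 13 tested, with a median of 0.49, whereas nuclear genes of oxidative phosphorylation had 7 members up, 8 down and 16 short of the threshold among 31 tested, with a median of 0.02 and with 11 up without Hb replicate 2. Of the 6 largest gains in CPM, 5 were mitochondrial: mt-Co1, mt-Cytb, mt-Nd5, mt-Nd2 and mt-Nd1. The cytochrome oxidase subunit mt-Co1 went from 15145, 16600.4 and 16278 CPM to 23816, 22262 and 22489 CPM (log2 fold change 0.51 ± 0.0679, edgeR adjusted p = 5.66e-07), and the complex I subunit mt-Nd5 from 3147, 2857 and 3259 to 5402, 5394 and 5851 CPM (log2 fold change 0.85 ± 0.0686, edgeR adjusted p = 1.84e-10). The call of mt-Nd1 (log2 fold change 0.23, edgeR adjusted p = 0.0133) ended without Hb replicate 1 (edgeR adjusted p = 0.0796) or Hb+NTR1 replicate 3 (edgeR adjusted p = 0.0520).

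Heme and iron genes were mostly higher in Hb+NTR1 than in Hb, with 10 members up, 2 down and 4 short of the threshold among 16 tested and a median of 0.45. Hmox1, heme oxygenase 1, had 86.9, 94.7 and 78.9 CPM in Hb and 163, 194 and 186 CPM in Hb+NTR1 (log2 fold change 1.06 ± 0.0761, edgeR adjusted p = 2.32e-11). Fth1, the ferritin heavy chain, had 1694, 1998 and 1564 CPM and 2717, 3006 and 2930.3 CPM (log2 fold change 0.72 ± 0.0778, edgeR adjusted p = 2.49e-08). Both were higher in all Hb+NTR1 libraries than in any Hb library. The ferritin light chain Ftl1, like Fth1 a gene with many pseudogenes, rose from 9.90 ± 0.954 CPM in Hb to 18.3 ± 1.84 CPM in Hb+NTR1, the biliverdin reductase Blvrb from 68.0 to 101 CPM, the heme exporter Flvcr1 from 50.3 to 76.9 CPM and the transferrin receptor Tfrc from 175 to 287 CPM. The iron exporter Slc40a1, named after its values were seen, was near the floor in Hb and had 1.37 ± 0.360 CPM in Hb+NTR1, while Cp, the oxidase of the same export step, was among the largest falls.

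NRF2 targets, the antioxidant program, were divided, with 11 members up, 8 down and 4 short of the threshold among 23 tested and a median of 0.09. Reductases of oxidised thiols rose: Txnrd1, thioredoxin reductase, from 328, 320.5 and 309.99 CPM to 783, 801 and 866 CPM (log2 fold change 1.35 ± 0.0613, edgeR adjusted p = 4.67e-15) and Srxn1 from 121 ± 1.497 CPM in Hb to 335 ± 17.2 CPM in Hb+NTR1. The quinone reductase Nqo1 rose from 91.9 to 197 CPM, and the glutathione synthesis genes Gclc and Gclm from 102 to 199.7 and from 165 to 269 CPM. The glutathione transferase gene Gsta4 fell from 234, 304 and 253 CPM to 27.4, 28.7 and 27.1 CPM (log2 fold change -3.25 ± 0.0996, edgeR adjusted p = 9.85e-18). The aldehyde dehydrogenase gene Aldh3a1 fell from 12.6 ± 2.45 CPM in Hb to 5.47 ± 0.840 CPM in Hb+NTR1. Changes of at least 2-fold were found in 3 members that rose and 2 that fell. Without Hb replicate 2 the median of the NRF2 targets was 0.21. Ferroptosis genes had 7 members up, 5 down and 4 short of the threshold among 16 tested, with 3 down in place of 5 when Hb replicate 1, Hb+NTR1 replicate 1 or Hb+NTR1 replicate 2 was left out. Gpx4, which reduces lipid peroxides, had 147 ± 19.0 and 135 ± 11.4 CPM, with edgeR adjusted p = 0.157, and Ptgs2 and Sat1 rose from 144 to 284 and from 173 to 325 CPM.

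The title of the series names apoptosis, and its regulators had called members in both directions, as did all genes (30.7% higher, 31.6% lower). The threshold was passed by 50% of anti-apoptotic and 71.4% of pro-apoptotic genes tested, against 62.3% of all genes. Anti-apoptotic genes had 5 members up, 1 down and 6 short of the threshold among 12 tested, with a median of 0.17, and pro-apoptotic genes 10 members up, 5 down and 6 short of the threshold among 21 tested, with a median of 0.33. The anti-apoptotic members down were 0 without Hb replicate 1, Hb replicate 2, Hb+NTR1 replicate 2 or Hb+NTR1 replicate 3, and with DESeq2. Bcl2, which holds mitochondria intact, had 10.0, 6.01 and 6.97 CPM in Hb and 15.8, 17.3 and 20.1 CPM in Hb+NTR1 (log2 fold change 1.21 ± 0.157, edgeR adjusted p = 4.44e-07). Bax, which opens the mitochondrial membrane, had 44.1, 47.4 and 33.6 CPM and 21.0, 22.3 and 17.96 CPM (log2 fold change -1.03 ± 0.118, edgeR adjusted p = 6.17e-08). No library of one group overlapped the other in either gene. The BH3-only gene Bbc3 fell from 22.3 ± 3.29 CPM in Hb to 9.82 ± 1.27 CPM in Hb+NTR1. By contrast the death receptor gene Tnfrsf10b rose from 34.0 ± 2.25 CPM in Hb to 69.1 ± 0.04997 CPM in Hb+NTR1. RNA levels do not measure cell death.

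p53 targets had 10 members up, 6 down and 6 short of the threshold among 22 tested, with a median of 0.21. Btg2, an antiproliferative gene that is also an immediate early gene, rose from 15.3 ± 0.319 CPM in Hb to 91.7 ± 5.59 CPM in Hb+NTR1 and the cell cycle inhibitor Cdkn1a from 108 ± 6.17 CPM in Hb to 182 ± 16.5 CPM in Hb+NTR1, while Zmat3 fell from 112 to 52.7 CPM. DNA replication genes had 6 members up, 14 down and 8 short of the threshold among 28 tested, with a median of -0.18 and no member past 2-fold. Mitotic genes had 7 members up, 7 down and 14 short of the threshold among 28 tested, with a median of 0.01; Ccnb2 and Cdc20 fell from 27.4 to 11.8 and from 334 to 169 CPM and Bub1 rose from 156 to 247 CPM. D cyclins, CDK inhibitors and RB family genes had 5 members up, 2 down and 4 short of the threshold among 11 tested, with a median of 0.15; Cdk4 fell from 557 ± 38.5 CPM in Hb to 296 ± 21.7 CPM in Hb+NTR1 and Rb1 rose from 22.2 to 35.6 CPM.

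**Figure D4:**
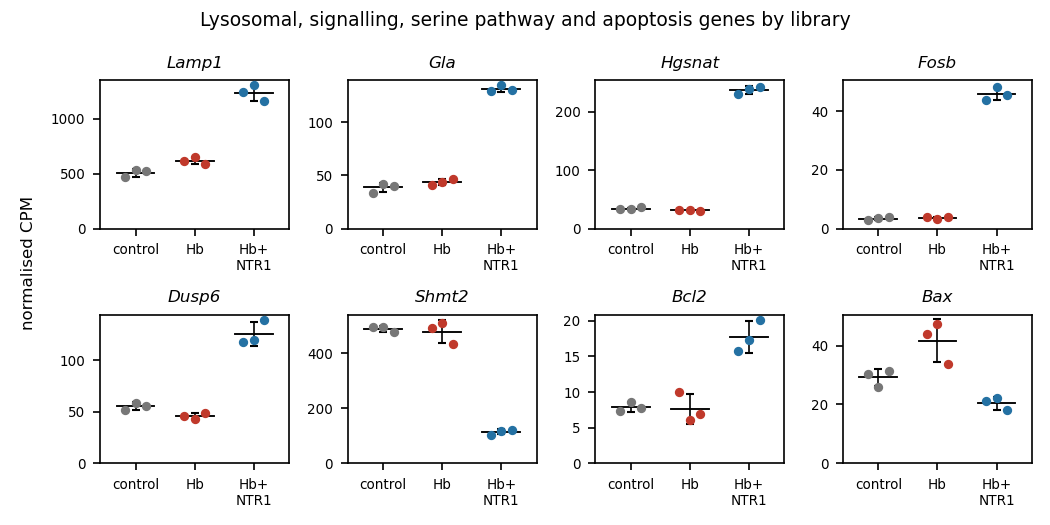
Normalised CPM (y axis, from 0) of 8 genes in the 3 libraries of control, Hb and Hb+NTR1; points are libraries, horizontal lines are means and bars are ± 1 SD (n = 3). Lamp1, Gla, Hgsnat, Fosb, Dusp6 and Bcl2 are highest in Hb+NTR1, and Shmt2 and Bax are lowest there.

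Genes that differed most between Hb and control were followed into Hb+NTR1. The comparisons share the Hb libraries, so values are given side by side and no overlap is computed. Some genes went further from control when NTR1 was added. In the order control, Hb, Hb+NTR1, Hmox1 had 42.4 ± 1.47, 86.8 ± 7.93 and 181 ± 16.1 CPM. The lipid transporter gene Abca8b had 3.68 ± 0.505, 7.26 ± 0.236 and 16.2 ± 0.415 CPM, and Postn, on the falling side, 16.7 ± 2.96, 8.52 ± 1.8004 and 1.64 ± 0.168 CPM. Other genes crossed the control level. Gsta4 had 91.9, 108 and 118 CPM in control, between its Hb and Hb+NTR1 values, and Itgb7, a β integrin of lymphocytes, had 11.5 ± 1.202, 26.0 ± 3.87 and 4.93 ± 1.09 CPM. Prl2c2, a proliferin, had 4.96 ± 0.809, 18.04 ± 2.91 and 0.116 ± 0.0805 CPM. The transcription factor Egr3 and the interferon-inducible Ifi202b lay lowest in Hb and highest in Hb+NTR1, with Ifi202b at 11.4 ± 1.96, 3.83 ± 0.459 and 26.5 ± 1.71 CPM.

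Fstl1 came close to control, while other genes moved part of the way or did not pass against Hb. Fstl1, a secreted glycoprotein, had 41.4, 43.7 and 46.4 CPM in the Hb libraries, 83.1, 92.8 and 93.3 CPM in the Hb+NTR1 libraries and 98.8, 90.6 and 87.5 CPM in the controls. Its Hb+NTR1 libraries lay within or just below the control range and above all Hb libraries, with a log2 fold change of 1.03 against Hb (edgeR adjusted p = 3.89e-11) and -0.04 against control (edgeR adjusted p = 0.637). Aldh3a1, an aldehyde dehydrogenase, had 3.34 ± 0.209, 12.6 ± 2.45 and 5.47 ± 0.840 CPM and stayed above control (edgeR adjusted p = 0.00296). Thbs1, thrombospondin 1, had 239 ± 47.0, 73.5 ± 3.31 and 107 ± 8.72 CPM and remained below control (edgeR adjusted p = 3.21e-08). Atg9b had 7.29 ± 1.04 CPM in Hb and 6.97 ± 0.424 CPM in Hb+NTR1, with edgeR adjusted p = 0.775, against 2.35 ± 0.548 CPM in control.

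**Figure D5:**
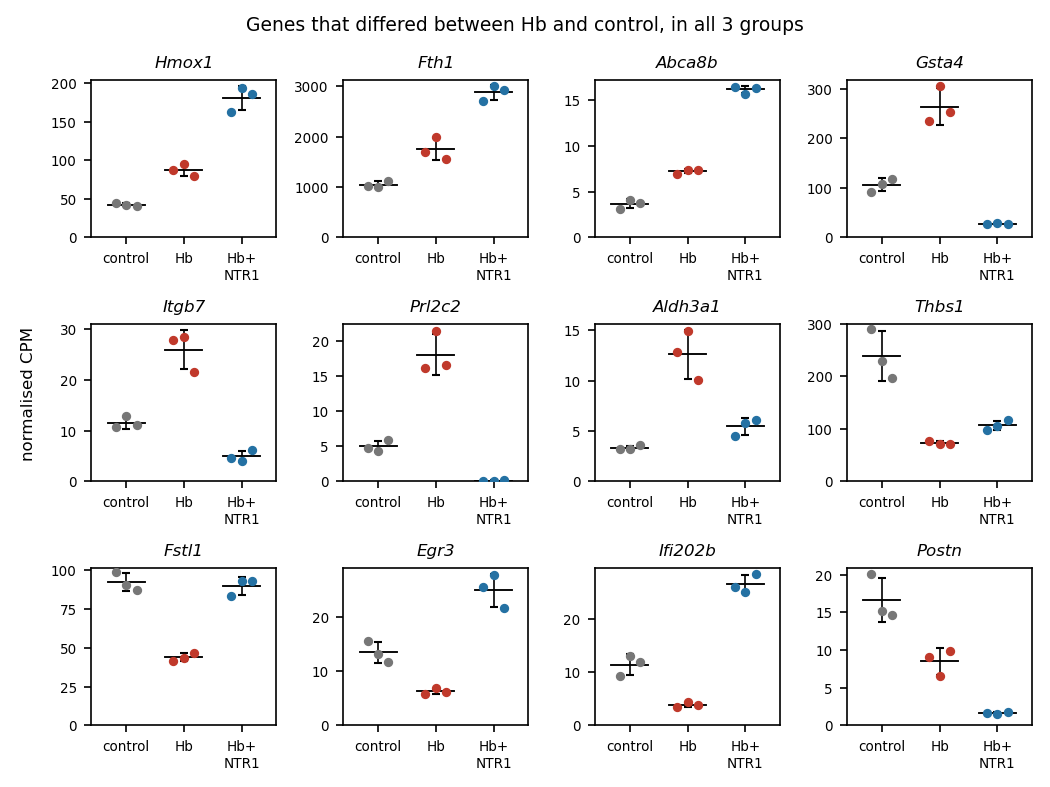
Normalised CPM (y axis, from 0) in the 3 libraries of control, Hb and Hb+NTR1 for 12 genes that differed between Hb and control; points are libraries, horizontal lines are means and bars are ± 1 SD (n = 3). Hmox1, Fth1 and Abca8b are highest in Hb+NTR1, Fstl1 is near control in Hb+NTR1, and Gsta4, Itgb7 and Prl2c2 fall below control.

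In 26 genes (0.188%) the groups differed as if between presence and absence, with under 0.5 CPM in every library of one group and at least 3 CPM in every library of the other. Leaving out predicted genes, 11 had their counts in Hb+NTR1 and 12 in Hb. The largest of the first kind were Usp17ld, Hecw2, Reps2, Tmem229b and Selp. Reps2, which encodes an endocytic adaptor, had 0, 2 and 0 counts in the Hb libraries and 90, 65 and 99 in the Hb+NTR1 libraries, a depth-scaled ratio of 126 (95% interval 34.6 to 1049.5) for counting error only. Selp, the adhesion molecule P-selectin, had 3, 0 and 0 and 111, 52 and 98 counts, a ratio of 86.6 (95% interval 29.3 to 423). Usp17ld belongs to a family of near-identical deubiquitinases and is uncertain. The largest of the second kind were Prl2c2, Slc6a2, Unc5c, Cdh26 and Plac1. Slc6a2, the noradrenaline transporter, had 54, 58 and 74 counts in Hb and 0, 0 and 2 in Hb+NTR1, and Plac1, a gene named for the placenta, had 111, 117 and 116 and 5, 4 and 2.

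Interferon-stimulated genes had 12 members up, 3 down and 8 short of the threshold among 23 tested, with a median of 0.46; the guanylate-binding proteins Gbp2 and Gbp3 rose from 12.03 ± 0.807 CPM in Hb to 30.9 ± 3.26 CPM in Hb+NTR1 and from 2.70 to 15.4 CPM and the RNA sensor Ddx58 from 32.6 to 77.4 CPM, while Isg15 fell from 9.13 to 4.03 CPM. NF-kB, chemokine and cytokine genes had 8 members up, 10 down and 1 short of the threshold among 19 tested, with 5 up without Hb+NTR1 replicate 2: the chemokine Ccl2 rose from 11.8 ± 1.13 CPM in Hb to 34.8 ± 1.66 CPM in Hb+NTR1, and Cxcl5 and the adhesion molecule Vcam1 fell from 47.7 to 18.4 and from 124 to 31.4 CPM. Of 9 microglia and macrophage markers 2 were tested, Cd68, which rose, and Tmem119, which fell from 13.3 ± 0.907 CPM in Hb to 3.33 ± 0.100 CPM in Hb+NTR1. The defining markers P2ry12, Adgre1, Cx3cr1, Csf1r and Ptprc were all under 0.3 CPM in both groups. All 4 tested astrocyte markers of 9 fell; the glutamate transporter Slc1a3 had 113, 119 and 137 CPM in Hb and 6.65, 7.59 and 6.96 CPM in Hb+NTR1 (log2 fold change -4.12 ± 0.0989, edgeR adjusted p = 3.36e-20), with Aqp4 and Gjb6 at 0. Of 30 neuronal markers 8 were tested, with 1 higher and 5 lower. Tubb3, neuronal β-tubulin, had 36.7, 41.3 and 32.3 CPM in Hb and 4.93, 5.76 and 5.08 CPM in Hb+NTR1 (log2 fold change -2.81 ± 0.122, edgeR adjusted p = 2.44e-15), and the postsynaptic scaffold gene Dlg4 fell from 70.7 ± 2.28 CPM in Hb to 32.1 ± 0.257 CPM in Hb+NTR1. Oligodendrocyte and erythroid markers summed to under 5 CPM in each group.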

How the data were processed

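Poly(A) RNA of 9 libraries, 3 per group, was analysed from raw counts per gene symbol that the authors deposited without normalisation. Per the submitters' processing notes the tools were bcl2fastq 2.19.1.403, HISAT2 2.1.0 and HTSeq 0.10.0 with GRCm38; annotation release, strand setting and the handling of multi-mapped reads were not stated in these sources, so near-identical and overlapping genes are uncertain. Count columns beginning with N were taken as the ganyu group, because the authors' deposited comparison of that group with control holds only N and C columns.

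Of 54232 entries, 98 exact repeats of symbol and counts were removed. In R 4.3.3, edgeR 4.0.16 (filterByExpr with a minimum count of 10, TMM factors of 0.972 to 1.03) fitted all 9 libraries with group as the only term and robust quasi-likelihood dispersion; the common dispersion gave a biological coefficient of variation of 6.90%. Each SE was taken from the log2 fold change and its F value (absolute value over the root of F). The fit was tested on simulated counts in which only a small share of genes changed, so its behaviour under a change as broad as the observed one was not tested. The members and the 44 gene lists were chosen with earlier results of these data known; lists are described, not tested. Named genes were the 12 largest rises and falls reaching 10 CPM without overlap of libraries, the 6 largest gains and losses in CPM, up to 4 called members per list reaching 5 CPM, the 10 largest rises and falls of Hb against control, the 5 largest on each side between absence and presence, and a fixed set of 9 for integrins, apoptosis and stress; all other genes (such as Lamp1, Mcoln1, Tfeb, Tfe3, the E-box genes and members that went against their list) were named for their role after their values were seen. A few genes that the rule names are not reported here. Positions come from GENCODE M21 (98.6% of tested genes matched), promoters from RefSeq (250 bases before to 50 after a start). Of 7 motifs searched, the CArG box was added after the values were seen; chromosome 18 was left out. Alternatives were DESeq2 1.42.0 and its size factors, library totals, other filters, a fold threshold of 1.2, only 6 libraries, a replicate block, removal of mitochondrial genes, and each library left out.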

Additional observations from a re-analysis of the deposited data

How the results depend on the processing

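The number of genes called was 7909 to 8767 under every alternative but the fold threshold of 1.2, which called 5945, 2821 of them higher. No gene called both under an alternative and in the reported fit changed direction. The fold threshold uses the fold changes of the reported fit, so no direction could change there. DESeq2 called 8179 and the fit without a low-count filter 8767. Other scalings moved the median of all genes by at most 0.0246 log2 units. With 1 library left out, 7909 to 8659 genes were called. Same-numbered libraries deviated together only weakly (correlations of -0.0488 to 0.0953). Libraries of different groups and numbers spanned -0.116 to 0.139. Such weak values cannot decide whether the numbers pair the libraries. A replicate block called 8706. Of 245 genes chosen by the naming rule or named outside it, 11 lost their call under at least 1 alternative: Tcim, mt-Nd1, Cflar, Syn1, Spry1, Col4a1, Col4a2, Ctsl, Gaa, Myc and Tfe3. Ccnd1 passed with library totals alone, and Gpx4 passed without Hb replicate 3. A few genes short of the threshold changed sign: Itga5 with library totals alone (0.0113), and Cd63 and Myh9 without a filter (-0.00268 and -0.00684). With 1 library left out, log2 fold changes spanned 0 for Actb (-0.179 to 0.0205), Cd63 (-0.0405 to 0.0941), Ctsz (-0.0578 to 0.146), Itga5 (-0.0678 to 0.0422), Myh9 (-0.0524 to 0.0639) and Shmt1 (-0.0147 to 0.0439). The fold threshold also lowered the counts of many lists. With it, ribosome biogenesis genes had 12 members down in place of 19. Pro-apoptotic genes had 6 up and 2 down in place of 10 and 5, and DNA replication genes 2 up and 8 down in place of 6 and 14.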

Other observations

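Zinc finger genes named Zfp leaned upward as a family, a pattern noticed in the data and not tested. Of 338 tested, 145 (42.9%) were higher in Hb+NTR1 than in Hb and 65 (19.2%) lower, with a median log2 fold change of 0.21, against 30.7% higher and 31.7% lower over 13620 genes with a position. In a cluster of 20 such genes at chromosome 13:67038596-67827002 of GRCm38, 13 were higher, 0 were lower and 7 did not pass. The median of the cluster was 0.64. Its bounds were set from the neighbouring genes of chromosome 13 with the highest median. The split within it therefore follows in part from that choice. Zfp729a had 17.0 ± 1.85 CPM in Hb and 31.8 ± 1.58 CPM in Hb+NTR1, and Zfp748 had 12.6 ± 2.08 and 24.1 ± 2.80 CPM (n = 3). These genes are close relatives and may share reads.

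Clock genes were divided, with 4 members up, 7 down and 3 short of the threshold among 14 tested and a median of -0.29. Bhlhe40, a repressor of the clock, rose from 49.7 ± 3.12 CPM in Hb to 107 ± 4.66 CPM in Hb+NTR1 and the nuclear receptor gene Nr1d2 from 51.9 to 82.2 CPM, whereas Dbp and Nfil3 fell from 5.18 to 2.66 and from 28.1 to 16.1 CPM. Medians over 2631 overlapping windows of 25 genes had an SD of 0.202 log2 units, against 0.0487 for Hb against control, where the median absolute log2 fold change over all genes was 0.42 and 0.12. The lowest median was -0.89, on chromosome 7 between 45457944 and 45917413, where 2 genes were higher and 14 lower. Median log2 fold changes rose with exonic length, from -0.11 in the class of shortest protein coding genes (up to 2567 bases) to 0.0937 in the class of longest (at least 7752 bases), and the part of length in the results was not tested.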
